A study of Mus musculus with 4 samples.

Results

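Lipoprotein receptors take up ApoE-carrying particles at the cell surface, and 10 genes around them were examined by symbol at the spinal cord lesion, out of 14718 gene symbols in all. They were Lrp1, Lrp2, Lrp4, Lrp5, Lrp6, Lrp8, Lrp10, Vldlr, Sorl1 and Lrpap1, taken by name with no threshold on a measured value. The table writes them in capitals, as LRP1, LRP2, LRP4, LRP5, LRP6, LRP8, LRP10, VLDLR, SORL1 and LRPAP1. At 7 days post injury (dpi), 9 of the 10 were listed among 14125 symbols. At 21 dpi, 8 of the 10 were listed among 11472 symbols. Lrp2 was listed at neither time point and Lrp5 at 7 dpi only, so Lrp2 at both times and Lrp5 at 21 dpi were not analysed here. Each of the listed genes had a mean level of at least 1 FPKM (fragments scaled to transcript length and library size), so no filter on low values removed a gene.

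RNA was sequenced from spinal cord segments of about 4 mm centred on a contusion of 50 kdyne at the vertebral level T9. The mice were males of 3 to 5 months. They were ApoE3 or ApoE4 targeted replacement animals, in which the coding part of the murine Apoe gene was exchanged for the human ε3 or ε4 allele. There were 4 groups, ApoE3 at 7 dpi, ApoE4 at 7 dpi, ApoE3 at 21 dpi and ApoE4 at 21 dpi, with 3 mice in each by the study's methods. The isoform is present throughout life and in each cell that uses the locus, all 4 groups were injured, and females were not analysed here.

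For each gene, 1 value per group was deposited, so no spread between mice could be computed and none of the differences was tested. No p-value, standard deviation or interval is given for that reason, and since FPKM keeps no read numbers, the depth of each gene is unknown. The genotype of each column has a limit that bears on each direction between genotypes. The comparison is named ApoE3 versus ApoE4, and the earlier value was read as ApoE3 accordingly, the sense in which the study's own gene list takes the ratio. The sample numbering on the same rows places ApoE4 at the earlier value. Under that other reading, each difference between genotypes would take the opposite direction and the genotype names of the changes over time would be exchanged.

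As background, receptors of this family have extracellular ligand-binding repeats that hold lipoproteins, proteases and their inhibitors, and a short cytoplasmic tail that binds endocytic and signalling adaptors. In the nervous system they supply neurons with cholesterol carried by ApoE from glia, clear myelin debris and proteases, and relay the reelin, agrin and Wnt signals. Lrpap1, the receptor-associated protein, is a chaperone of the endoplasmic reticulum that keeps newly made receptors from binding ligand too early. The name of the gene group, receptors that bind ApoE, therefore fits Lrpap1 as a partner and not as a receptor. Lrp5 and Lrp6 are known mainly as co-receptors for Wnt proteins and Lrp4 as the receptor for agrin, and binding of ApoE was not measured in these RNA data.

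The segments carried the marker RNAs of spinal cord tissue. At 7 dpi, 11 of 12 neuron markers, 8 of 9 astrocyte markers and 6 of 9 oligodendrocyte markers were listed, led by Snap25, Gfap and Mbp. At 21 dpi, 9 of 12, 9 of 9 and 8 of 9 were listed, led by the same genes. Fewer cells of a type and less RNA per cell cannot be told apart in such segments, which holds for each receptor level given here.

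Lrp1 and Lrp8 had the highest FPKM levels of the group. Lrp1 is the large endocytic receptor of neurons, glia and macrophages that takes up myelin debris, protease complexes and ApoE. Its level was 256 FPKM in ApoE3 and 308 FPKM in ApoE4 at 7 dpi, and 179.8 and 255 FPKM at 21 dpi. Lrp8, also called ApoER2, is a reelin receptor of neurons. Its level was 224 FPKM in ApoE3 and 213 FPKM in ApoE4 at 7 dpi, and 245 and 347 FPKM at 21 dpi. Lrp1 thus stood above Lrp8 in both genotypes at 7 dpi, and Lrp8 stood above Lrp1 in both genotypes at 21 dpi. Within a group, the FPKM of Lrp8 was 0.877 times that of Lrp1 in ApoE3 and 0.691 times in ApoE4 at 7 dpi, and 1.36 times in each genotype at 21 dpi. This ratio is taken within a group and does not depend on the scaling of that group.

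The promoters of this pair are shown because they were the genes that exchanged places in the order of levels. Both come from RefSeq on the GRCm38.p6 build and run from 250 bases before to 50 bases after the annotated start, 5′ to 3′ on the strand of the gene. Capitals mark GGGCGG, the core of a GC box, on either strand. The Lrp1 promoter lies on the minus strand at chr10:127621099-127621398 and the Lrp8 promoter on the plus strand at chr4:107802635-107802934.
Lrp1: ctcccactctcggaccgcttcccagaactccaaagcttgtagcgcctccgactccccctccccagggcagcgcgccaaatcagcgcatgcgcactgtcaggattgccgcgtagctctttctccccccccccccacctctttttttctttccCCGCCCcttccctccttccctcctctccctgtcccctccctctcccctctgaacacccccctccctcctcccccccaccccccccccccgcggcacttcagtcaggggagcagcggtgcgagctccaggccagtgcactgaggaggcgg
Lrp8: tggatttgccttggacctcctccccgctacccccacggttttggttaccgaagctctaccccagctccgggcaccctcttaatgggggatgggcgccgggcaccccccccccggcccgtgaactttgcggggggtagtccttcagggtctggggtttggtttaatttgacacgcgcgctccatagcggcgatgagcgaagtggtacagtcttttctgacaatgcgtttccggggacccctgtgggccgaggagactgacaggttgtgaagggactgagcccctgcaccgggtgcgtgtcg
The Lrp1 window held 1 GGGCGG and 67.7% G and C bases, and the Lrp8 window held 0 and 62.7%. Of the 10 genes, 7 had a promoter in the RefSeq table, and Lrp4, Lrp5 and Lrp6 were not matched. The GGGCGG letters were in 4 of these 7, with 5 copies in Lrpap1, 2 in Lrp2 and 1 each in Lrp1 and Sorl1, against 35.7% of 32851 promoters. CACGTG, an E-box that does not overlap GGGCGG, was in 1 of the 7, Sorl1, against 7.15% of promoters. The share of G and C bases ran from 43.0% in Vldlr to 72.3% in Sorl1, beside a median of 52.7% over all promoters. These matches describe letters in a window and were not tied to the RNA levels by any test.

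The other reelin receptor, Vldlr, which also takes up triglyceride-rich lipoproteins, stood at 94.8 FPKM in ApoE3 and 83.9 FPKM in ApoE4 at 7 dpi. At 21 dpi it was at 76.6 and 121 FPKM. Its ApoE3 level was thus the higher at 7 dpi and the lower at 21 dpi. Sorl1, a sorting receptor with a VPS10 domain that moves cargo between endosomes and the Golgi, was at 92.9 and 75.5 FPKM at 7 dpi, and at 54.5 and 83.5 FPKM at 21 dpi. Vldlr and Sorl1 had close levels in ApoE3 at 7 dpi, at a ratio of 1.02, and the ratio was 1.11 in ApoE4. At 21 dpi, Vldlr was 1.41 times Sorl1 in ApoE3 and 1.45 times in ApoE4.

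Lrp10, a receptor that cycles between the Golgi and endosomes, was at 63.8 FPKM in ApoE3 and 60.0 FPKM in ApoE4 at 7 dpi. It was at 35.6 and 52.7 FPKM at 21 dpi, the lower of its time points in both genotypes. Lrpap1 was at 126 and 131 FPKM at 7 dpi and at 122 and 164 FPKM at 21 dpi. The chaperone took the third place in the order of levels in each of the 4 groups. The FPKM of Lrpap1 was 0.491 times that of Lrp1 in ApoE3 and 0.426 times in ApoE4 at 7 dpi, and 0.678 and 0.642 times at 21 dpi.

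The Wnt co-receptors and the agrin receptor had the lowest levels of the group. Lrp6 was at 26.2 FPKM in ApoE3 and 26.1 FPKM in ApoE4 at 7 dpi, and at 18.3 and 25.5 FPKM at 21 dpi. Lrp5 was at 20.3 and 21.8 FPKM at 7 dpi. Lrp4 was at 17.7 and 17.8 FPKM at 7 dpi, and at 12.8 and 18.1 FPKM at 21 dpi. For Lrp4 and Lrp6, as deposited, 3 of the 4 groups lay close together and ApoE3 at 21 dpi was the low group. Relative to the median change of all genes, both were lower at 21 dpi in both genotypes. Lrp4 was at -0.52 in ApoE3 and -0.51 in ApoE4, and Lrp6 at -0.58 and -0.55, on the log2 scale. In the order of levels the genes ran Lrp1, Lrp8, Lrpap1, Vldlr, Sorl1, Lrp10, Lrp6, Lrp5 and Lrp4 at 7 dpi in both genotypes. At 21 dpi the order differed only in Lrp8 and Lrp1, without Lrp5. Without a spread between mice, it is not known which neighbours in this order differ beyond it.

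**Figure D1:**
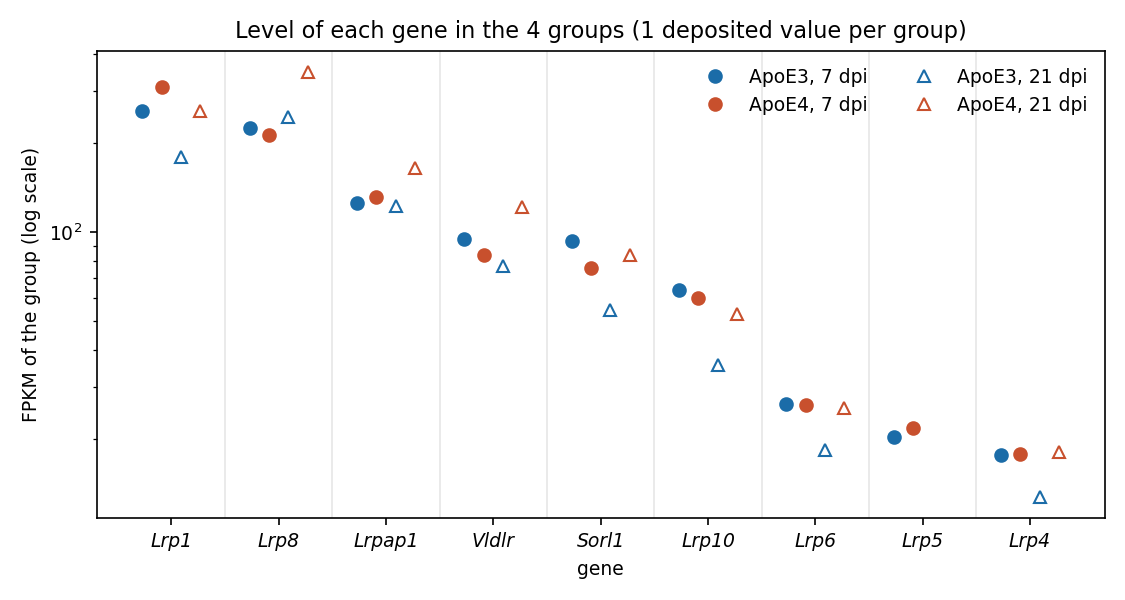
FPKM level on a log scale of each listed gene in the 4 groups, with 1 deposited value per group and no error. Circles are 7 dpi and triangles 21 dpi, blue ApoE3 and red ApoE4, and Lrp1 and Lrp8 are the highest at each time point; both time points may have been normalized separately.

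At 7 dpi, the genotype ratios of the receptors lay on both sides of 0, with Lrp1 higher in ApoE4 and Sorl1 and Vldlr higher in ApoE3 by less than the fold used. The genotype ratio is given as log2((FPKM ApoE3 + 1)/(FPKM ApoE4 + 1)), positive where ApoE3 was higher, and a gene was called where the ratio passed a fold of 1.3 (0.38 on the log2 scale). Of the 9 listed genes 0 passed this fold, against 8.54% of all listed genes in either direction. The median ratio of the 9 was 0.0089, beside 0.0018 over all genes, with 5 above 0 and 4 below. The ratios ran from -0.27 for Lrp1 to 0.30 for Sorl1.

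Lrp1, lower in ApoE3, had a ratio below that of most genes at 7 dpi, with 9.62% of genes lower still. Sorl1, at the other end, had 92.9% of genes below it, and Vldlr, at 0.17, had 82.5% below it. The remaining reelin receptor, Lrp8, had a ratio of 0.073, and Lrp10 of 0.087. Lrp5 was at -0.10 and its relative Lrp6 at 0.0089, and Lrp4 was at -0.014. Lrpap1 was at -0.065, close to the median of all genes.

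Some marker RNAs of neurons and macrophages were past the fold in the same segments. Of the 11 listed neuron markers 3, Snap25, Gad1 and Slc6a5, passed the fold, each higher in ApoE3 (3.78% of all genes in that direction), and none was at 0. Their summed level was 6350 FPKM in ApoE3 and 4983 FPKM in ApoE4, led by Snap25 at 3366 and 2545 FPKM. Of 8 listed macrophage markers 3, with Lyz2 and Ms4a7 among them, passed the fold, each higher in ApoE4 (4.76% of all genes in that direction), and none was at 0. Their summed level was 7038 and 9264 FPKM, led by Lyz2 at 4522 and 6076 FPKM. The part of either marker list in the ratios of Sorl1, Vldlr and Lrp1 was not tested.

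At 21 dpi, the whole table lay lower in ApoE3 than in ApoE4, and the receptors lay with it. The median log2 ratio of all genes was -0.42 and 93.8% of genes had a ratio below 0. The summed FPKM was 1.35 times as high in ApoE4 as in ApoE3, a log2 ratio of -0.44, where that of the sums at 7 dpi was -0.00017. As deposited, 8 of 8 listed genes passed the fold with the higher level in ApoE4, against 58.9% of all genes in that direction, but 0 of 8 passed it after the median of all genes was subtracted, against 15.5% in either direction. With the values rescaled to equal sums, 0 of 8 passed the fold as well, against 14.2%. As deposited, 2 of 8, Vldlr and Sorl1, passed a fold of 1.5 with the higher level in ApoE4, against 23% of all genes, and 0 passed a fold of 2, against 3.77%.

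With this shift of all genes subtracted, the ratios of the 8 listed genes at 21 dpi ran from -0.23 for Vldlr to -0.00092 for Lrpap1, with a median of -0.080. All 8 were below the median, although Lrpap1 was at 0.0060 with rescaled values. Vldlr had 16.2% of genes below it, and Sorl1, at -0.18 relative to the median, had 20.7% below it. Lrp10 stood at -0.13. Lrp1 and Lrp8, which had ratios of -0.27 and 0.073 at 7 dpi, both stood close to -0.08 here, at -0.081 and -0.079. Lrp4 was at -0.047 and Lrp6 at -0.033. As deposited, the ratios were -0.66 for Vldlr, -0.61 for Sorl1, -0.55 for Lrp10, -0.50 each for Lrp1 and Lrp8, -0.47 for Lrp4, -0.46 for Lrp6 and -0.42 for Lrpap1, or folds of 1.34 to 1.58 in favour of ApoE4.

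**Figure D2:**
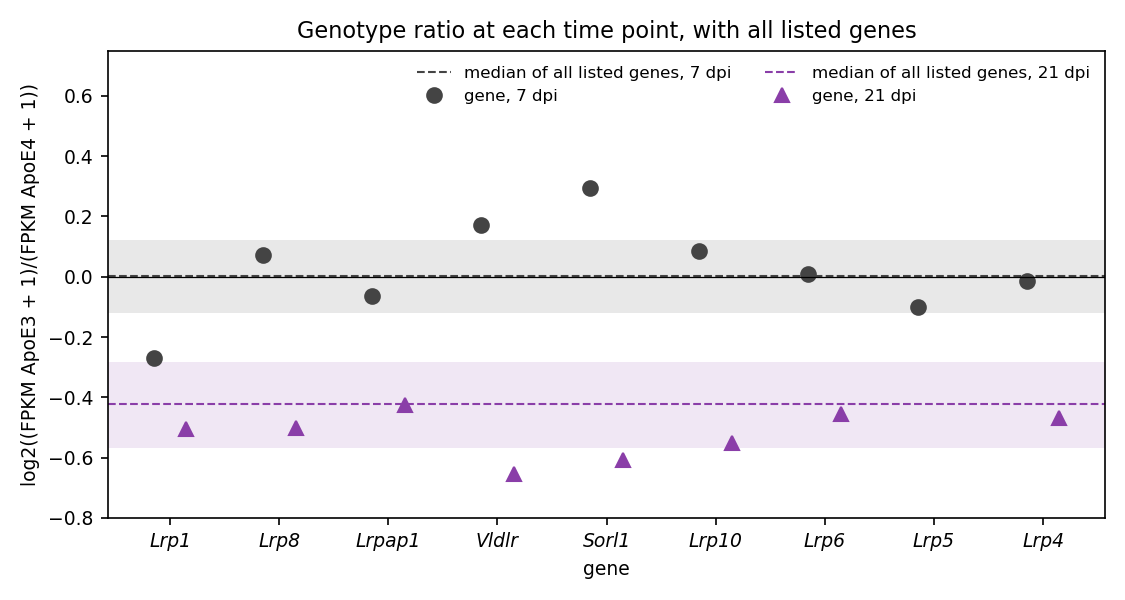
Genotype ratio of each listed gene as deposited at 7 dpi (circles) and 21 dpi (triangles) on the log2 scale, 1 value per gene and time point. Dashed lines are the medians of all listed genes and shaded bands hold the middle of all genes from the 25th to the 75th percentile, -0.12 to 0.12 at 7 dpi and -0.57 to -0.28 at 21 dpi; all 8 triangles lie below 0 and 6 of them within the band.

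Marker RNAs of other tissues stood at unlike levels in the groups at 21 dpi. The 9 listed skeletal muscle markers of 13 had a summed level of 35.1 FPKM in ApoE3 and 737 FPKM in ApoE4, led by Tnnt3, and Myh4 was listed at 0 in ApoE3. The 6 listed liver markers of 9 had sums of 10.3 and 121 FPKM, led by Apoa2. The 8 listed Schwann cell markers of 9 had sums of 3080 and 1113 FPKM, led by Pmp22. The 10 listed sensory ganglion markers of 11 had sums of 889 and 1027 FPKM, led by Calca, and ApoE4 had 0 for both Mrgprd and Trpv1. The medians of these lists relative to all genes were -3.37, -2.30, 1.25 and 2.04. A gene near 0 in 1 genotype can be listed through the other alone, as for Alb at 0.093 and 5.36 FPKM, so these medians are descriptions of the listed genes. The ratios of the receptors relative to the median stayed within 0.23 of it, and the part of these tissues in them was not tested.

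Among the cells of the cord, neuron markers had a median of -0.034 relative to all genes at 21 dpi, astrocyte markers -0.24, oligodendrocyte markers -0.12, oligodendrocyte precursor markers -0.080, microglia markers -0.24 and macrophage markers -0.67. Endothelial markers were at 0.094, fibroblast and pericyte markers at 0.59, ependymal markers at 0.79 and choroid plexus markers at -0.15. The receptor median of -0.080 was nearly equal to that of the oligodendrocyte precursor list and lay between those of the neuron and oligodendrocyte lists. The part of any list in it was not tested. At 7 dpi the corresponding medians were 0.26 for neuron, 0.027 for astrocyte, 0.053 for oligodendrocyte, -0.19 for precursor, -0.047 for microglia and -0.34 for macrophage markers. They were 0.037 for endothelial, -0.33 for fibroblast and pericyte, -0.096 for ependymal, 0.14 for choroid plexus, 0.34 for muscle, -0.14 for Schwann cell and 0.32 for sensory ganglion markers, and 0 of 9 liver markers were listed.

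**Figure D3:**
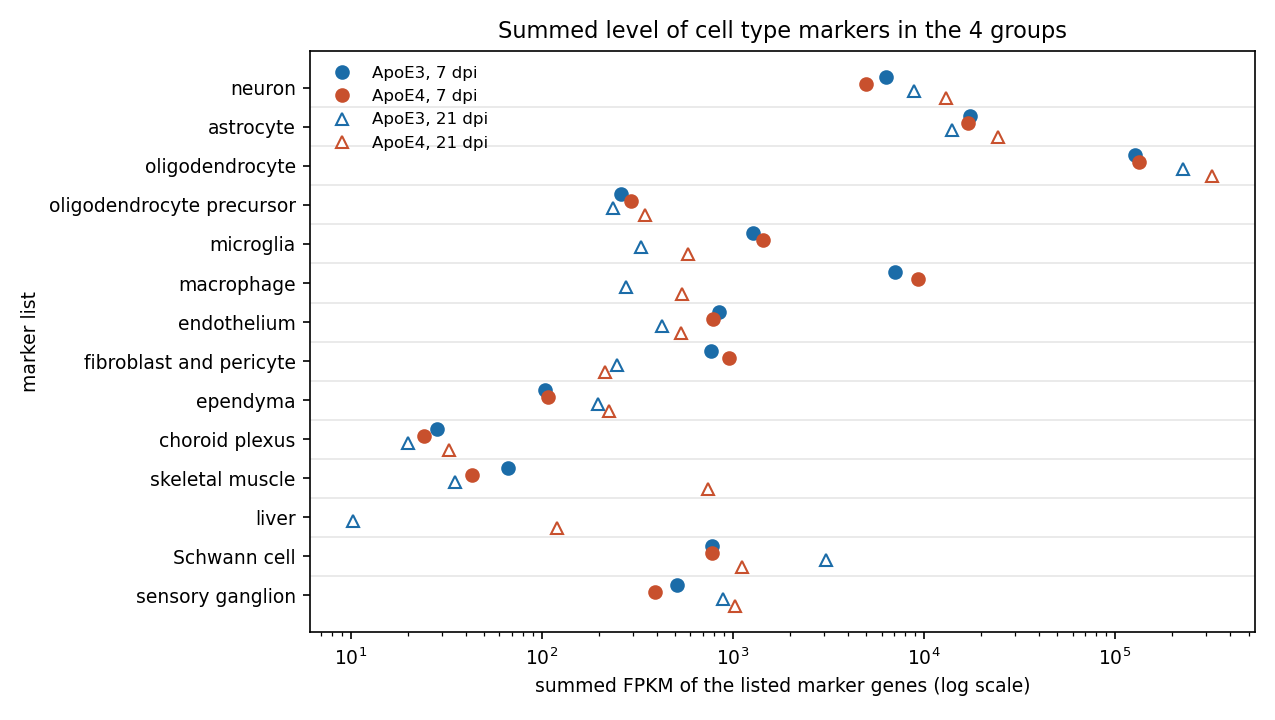
Summed FPKM on a log scale of the listed genes of each marker list in the 4 groups, circles 7 dpi and triangles 21 dpi, 1 value per group and no error. The number of listed genes differs between the time points, so a circle and a triangle of a list can sum different genes; at 21 dpi skeletal muscle was at 35.1 FPKM in ApoE3 and 737 FPKM in ApoE4.

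Between 7 and 21 dpi, most of the receptors moved down relative to the other genes in both genotypes, although as deposited Lrp4, Lrp8, Vldlr, Sorl1 and Lrpap1 in ApoE4 and Lrp8 in ApoE3 were higher at 21 dpi. Both time points may have been normalized separately, so the changes are given mainly relative to the median change of the 10876 genes listed at both, which was 0.089 on the log2 scale in ApoE3 and 0.53 in ApoE4. On this scale 6 of 8 genes were past the fold and lower at 21 dpi in ApoE3, against 27.7% of all genes in that direction. In ApoE4 5 of 8 were, Lrp1, Lrp4, Lrp6, Lrp10 and Sorl1, against 28.6%, and in ApoE3 these and Vldlr. In each genotype 7 of 8 were below the median and 0 were past the fold upwards, against 26.6% of all genes in ApoE3 and 26.1% in ApoE4, and Vldlr in ApoE4 was at -0.00069. With rescaled sums 6 of 8 were past the fold and lower in each genotype, against 35.8% of all genes in ApoE3 and 34.4% in ApoE4.

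Lrp10 had the lowest value in ApoE3, at -0.91, and was at -0.71 in ApoE4. Sorl1 was at -0.85 in ApoE3 and -0.38 in ApoE4, and Lrp1 at -0.59 in ApoE3 and -0.80 in ApoE4, the lowest value in that genotype. These endocytic and sorting receptors were thus past the fold and lower at 21 dpi in both genotypes, with Sorl1 in ApoE4 close to the threshold. Lrp6, at -0.58 and -0.55, and Lrp4, at -0.52 and -0.51, had nearly the same value in ApoE3 and ApoE4. Vldlr was past the fold in ApoE3 only, at -0.39, against -0.00069 in ApoE4, and whether the genotypes differ in this was not tested. Lrpap1 stood at -0.13 in ApoE3 and -0.21 in ApoE4. Lrp8 was above the median in both, at 0.036 and 0.17, although with rescaled sums it was below 0 in both, at -0.15 and -0.00087.

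As deposited, fewer of the 8 genes were past the fold and lower at 21 dpi in ApoE4 than in ApoE3, and more were higher, as for all genes. Within each genotype, however, the share that was higher lay below that of all genes. In ApoE3 the 8 genes leaned downwards, where more of all genes were higher than lower. In ApoE3 5 of 8 genes, Lrp1, Lrp4, Lrp6, Lrp10 and Sorl1, were past the fold and lower at 21 dpi (23.6% of all genes) and 0 were higher (31.3%). In ApoE4 0 were lower (10.9%) and 2, Lrp8 at 0.70 and Vldlr at 0.53, were higher (59% of all genes), of which neither was past the fold after the median was subtracted. At a fold of 1.5, 2 of 8, Lrp10 and Sorl1, were lower in ApoE3 (16% of all genes) and 1, Lrp8, was higher in ApoE4 (46.2%), and at a fold of 2 the counts were 0 and 0 (7.25% and 21.3%). The values as deposited for ApoE3 ran from -0.82 for Lrp10 to 0.13 for Lrp8. For ApoE4 they ran from -0.27 for Lrp1 to 0.70 for Lrp8.

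**Figure D4:**
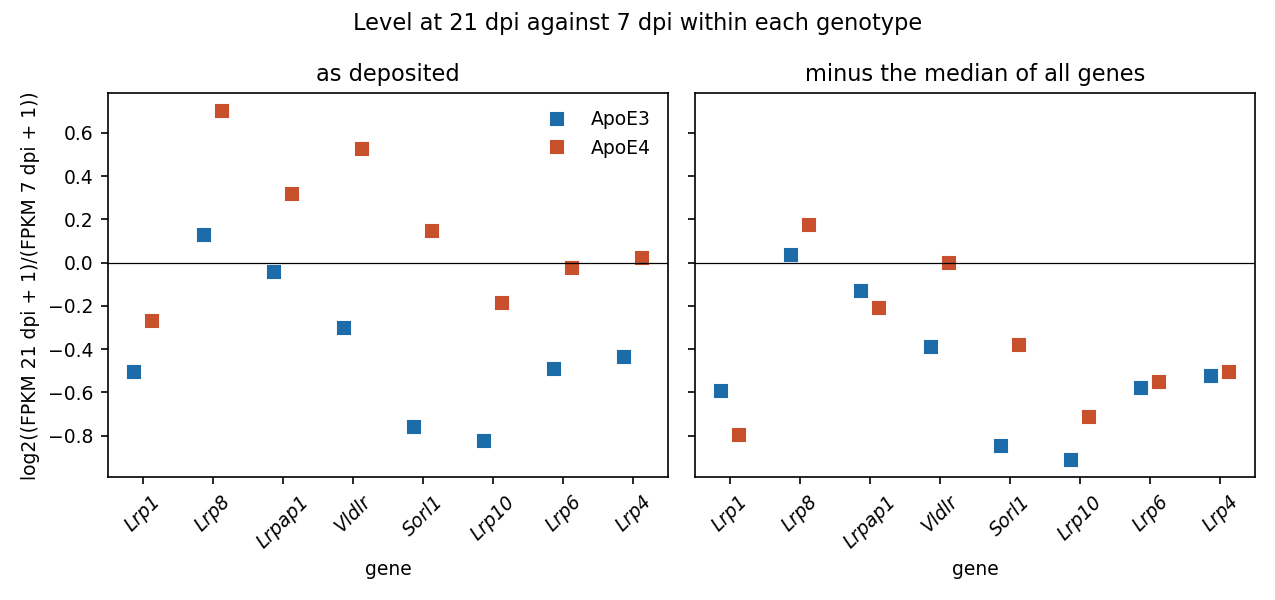
Level at 21 dpi against 7 dpi on the log2 scale for the 8 genes listed at both time points, ApoE3 in blue and ApoE4 in red, as deposited on the left and minus the median of all genes on the right, 1 value per gene and genotype. Relative to the median, 7 of 8 genes lie below 0 in each genotype, and Lrp8 lies above it in both, although below 0 in both with rescaled sums.

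The 8 genes had a median change of -0.55 in ApoE3 and -0.44 in ApoE4 relative to all genes, and the partner lists differed among themselves on this scale. The other receptors of the family, with 4 genes listed at both times, were at 0.044 in ApoE3, with 1 past the fold in each direction, and at 0.47 in ApoE4, with 3 past it upwards and 1 downwards. The shares of all genes were 26.6% upwards and 27.7% downwards in ApoE3, and 26.1% and 28.6% in ApoE4. Ligands were at -0.77 and -0.67, ApoE-binding proteins outside the family at -0.27 and -0.54, and the genes for shedding, cleavage and degradation at -0.67 and -0.96. Secretory chaperones were at -0.46 and -1.05, the partners of Lrp2 at -0.50 and -0.36, Wnt co-receptor partners at -0.29 and -0.25, and VPS10 receptors and retromer at -0.28 and -0.15. Adaptors were at -0.099 and 0.085, Wnt targets at 0.23 and -0.58, and agrin and neuromuscular synapse genes at 0.29 and 0.12.

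Marker RNAs moved over the same interval. Macrophage markers, of which 4 of 9 were listed at both times, had a median change of -4.25 in ApoE3 and -3.93 in ApoE4 relative to all genes. Fibroblast and pericyte markers were at -1.52 and -3.30, microglia markers at -0.72 and -0.69, astrocyte markers at -0.51 and -0.27, and oligodendrocyte precursor markers at -0.18 and -0.45. Neuron markers were at 0.64 and 1.13, oligodendrocyte markers at 0.17 and 0.37, endothelial markers at 0.071 and 0.047 and ependymal markers at 0.93 and 0.090. Markers of choroid plexus were at -0.17 and -0.65, of muscle at -1.03 and 2.95, of Schwann cells at 1.03 and -0.44 and of sensory ganglion at 0.94 and 1.09. The part of any of these lists in the changes of the receptors was not tested.

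The makeup of the receptor group by RNA moved with time as well. Over the 8 genes listed at both time points, the summed level was 901 FPKM in ApoE3 and 916 FPKM in ApoE4 at 7 dpi, and 744 and 1067 FPKM at 21 dpi. Lrp1 made up 28.4% of the sum in ApoE3 and 33.7% in ApoE4 at 7 dpi, and 24.2% and 23.9% at 21 dpi. Lrp8 made up 24.9% and 23.3% at 7 dpi, and 32.9% and 32.5% at 21 dpi. The shares of Sorl1 were 10.3% and 8.24% at 7 dpi and 7.32% and 7.82% at 21 dpi, and those of Lrp10 were 7.09% and 6.55%, then 4.79% and 4.94%.

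The genes that work with the receptors were taken from fixed lists, and their ratios at 21 dpi are given after subtraction of the median of all genes. As deposited, the counts at 21 dpi were on the ApoE4 side in most lists, as they were for all genes, of which 58.9% were past the fold and higher in ApoE4 and 2.02% higher in ApoE3. Higher in ApoE4 were 4 of 4 other receptors of the family, 4 of 11 ApoE-binding proteins outside it, 9 of 16 ligands, 7 of 9 adaptors, 10 of 23 Wnt co-receptor partners and 3 of 9 Wnt targets. The same held for 0 of 4 agrin and synapse genes, 7 of 12 VPS10 and retromer genes, 4 of 8 shedding genes, 11 of 12 chaperones and 2 of 3 partners of Lrp2. Higher in ApoE3 as deposited were 2 ApoE-binding proteins, Hspg2 and Sdc1, and 1 ligand, again Hspg2.

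After the subtraction, the counts at 21 dpi stand against 15.5% of all genes in either direction, and those at 7 dpi against 8.54%. Among the 5 other receptors of the family 0 were past the fold at 7 dpi, and at 21 dpi 1 of 4 was, namely Lrp1b, a close relative of Lrp1, at -0.75 (44.1 FPKM in ApoE3 and 101 FPKM in ApoE4). The list had a median of 0.086 at 7 dpi and -0.14 at 21 dpi, beside -0.080 for the 8 receptors. The proteins outside the family that bind ApoE, which include Trem2 and heparan sulfate proteoglycans, had 0 of 13 past the fold at 7 dpi (median -0.065). At 21 dpi 5 of 11 were past it, 4 higher in ApoE3 and 1 in ApoE4, against 7.47% and 8.07% of all genes (median 0.18), where as deposited the counts were 2 and 4. On the ApoE3 side were Hspg2, Sdc1, Gpc2 and Lsr, of which Lsr had the lower level in ApoE3 as deposited (46.2 and 47.5 FPKM) and was no longer past the fold with rescaled sums. The highest was Hspg2, the basement membrane proteoglycan perlecan, at 1.84 (66.1 and 24.1 FPKM), and the lowest Gpc5, a glypican, at -0.40 (65.6 and 117 FPKM).

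Among 15 listed ligands of the receptors at 7 dpi, 5 were past the fold and all, with Thbs1, Thbs2, Plau and Ctgf among them, were higher in ApoE4, against 4.76% of all genes in that direction (median -0.12), while 0 of the 9 listed members were past it. With rescaled sums 4 were past it, without Thbs2. Thrombospondin 1 (Thbs1), which Lrp1 takes up, was at 15.7 FPKM in ApoE3 and 32.9 FPKM in ApoE4, a ratio of -1.02. The urokinase gene Plau, whose protein is cleared through Lrp1 in protease complexes, was at -0.58. At 21 dpi 7 of 16 ligands were past the fold relative to the median, 4 (with Hspg2, Tfpi and Ctgf among them) higher in ApoE3 and 3 in ApoE4, against 7.47% and 8.07% of all genes (median -0.044). As deposited these counts were 1 and 9, and with rescaled sums 3 and 3. Past the fold on the ApoE4 side relative to the median were A2m, the protease trap taken up by Lrp1, at -0.56, Plau at -0.50 and Lpl, a lipase bound by several of the receptors, at -0.49. Apoe and Reln, chosen after their values were seen, stood within the fold relative to the median at 21 dpi. Apoe was listed at 21 dpi only, at 843 FPKM in ApoE3 and 1311 FPKM in ApoE4 (-0.21), and which reads of the human allele this mouse row holds is not given in the sources used here. Reln, the ligand of Lrp8 and Vldlr, was at 47.2 and 43.1 FPKM at 7 dpi and 61.2 and 70.7 FPKM at 21 dpi.

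The counts in the next lists stand against 8.54% of all genes at 7 dpi and 15.5% at 21 dpi. None of these counts was tested, and a count of 0 or 1 was not read as a result about a list. The cytoplasmic adaptors of the receptor tails, which include the reelin signalling genes, had 0 of 15 past the fold at 7 dpi (median 0.079) and 0 of 9 at 21 dpi (median -0.0079). The adaptor closest to Lrp8 and Vldlr, Dab1, chosen after its value was seen, had a ratio of 0.37 at 7 dpi (180.3 and 139.5 FPKM), just short of the fold, and was not analysed here at 21 dpi. For Lrp5 and Lrp6, the partners and inhibitors of the Wnt co-receptors had 1 of 25 past the fold at 7 dpi, Rspo3 at 0.44, with a median of 0.024, beside -0.10 for Lrp5 and 0.0089 for Lrp6. At 21 dpi 1 of 23 was past it, Fzd2, a Wnt receptor outside the naming rule, at 0.61 and no longer past it with rescaled sums (median 0.086). Of 9 Wnt target genes, Notum at 0.43 and Rnf43 at -0.66 were past the fold in opposite directions at 7 dpi (median -0.094). At 21 dpi 3 of 9 were, 2, Tcf7 and Axin2, higher in ApoE3 and 1, Notum at -0.67, in ApoE4 (median 0.20). Of these, Axin2 had the lower level in ApoE3 as deposited (35.9 and 37.0 FPKM) and was no longer past the fold with rescaled sums. The agrin and neuromuscular synapse genes around Lrp4 had 0 of 6 past the fold at 7 dpi (median 0.016) and 0 of 4 at 21 dpi (median 0.14).

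Against the same shares of all genes, 8.54% at 7 dpi and 15.5% at 21 dpi, no gene was past the fold in the lists around Sorl1, receptor shedding and Lrp2, at 21 dpi only after the subtraction of the median. For Sorl1, the related VPS10 receptors and the retromer, the coat complex that carries Sorl1 out of endosomes, had 0 of 14 past the fold at 7 dpi (median 0.052) and 0 of 12 at 21 dpi (median 0.016). Sorl1 itself was at 0.30 and -0.18, and the retromer subunit Vps35 was at -0.14 at 21 dpi. The genes for shedding, cleavage and degradation of the receptors had 0 of 12 past the fold at 7 dpi (median -0.11) and 0 of 8 at 21 dpi (median 0.041). In that list Adam17, a sheddase, stood at -0.36 at 21 dpi. The epithelial partners of Lrp2 had 0 of 3 past the fold at 7 dpi (median -0.077) and 0 of 3 at 21 dpi (median -0.18).

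The secretory pathway chaperones, among which Lrpap1 works, had the list median farthest from 0 of the partner lists at 7 dpi. Of 13 listed, 11 were past the fold and higher in ApoE4, against 4.76% of all genes in that direction, with a median of -0.63. Creld2 was at 4.46 FPKM in ApoE3 and 10.1 FPKM in ApoE4, and Hspa5, the chaperone BiP, at 249 and 410 FPKM. Lrpap1, at -0.065, lay apart from these 11. At 21 dpi 11 of 12 chaperones were past the fold as deposited and 0 of 12 relative to the median (median -0.14), with Lrpap1 at -0.00092.

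**Figure D5:**
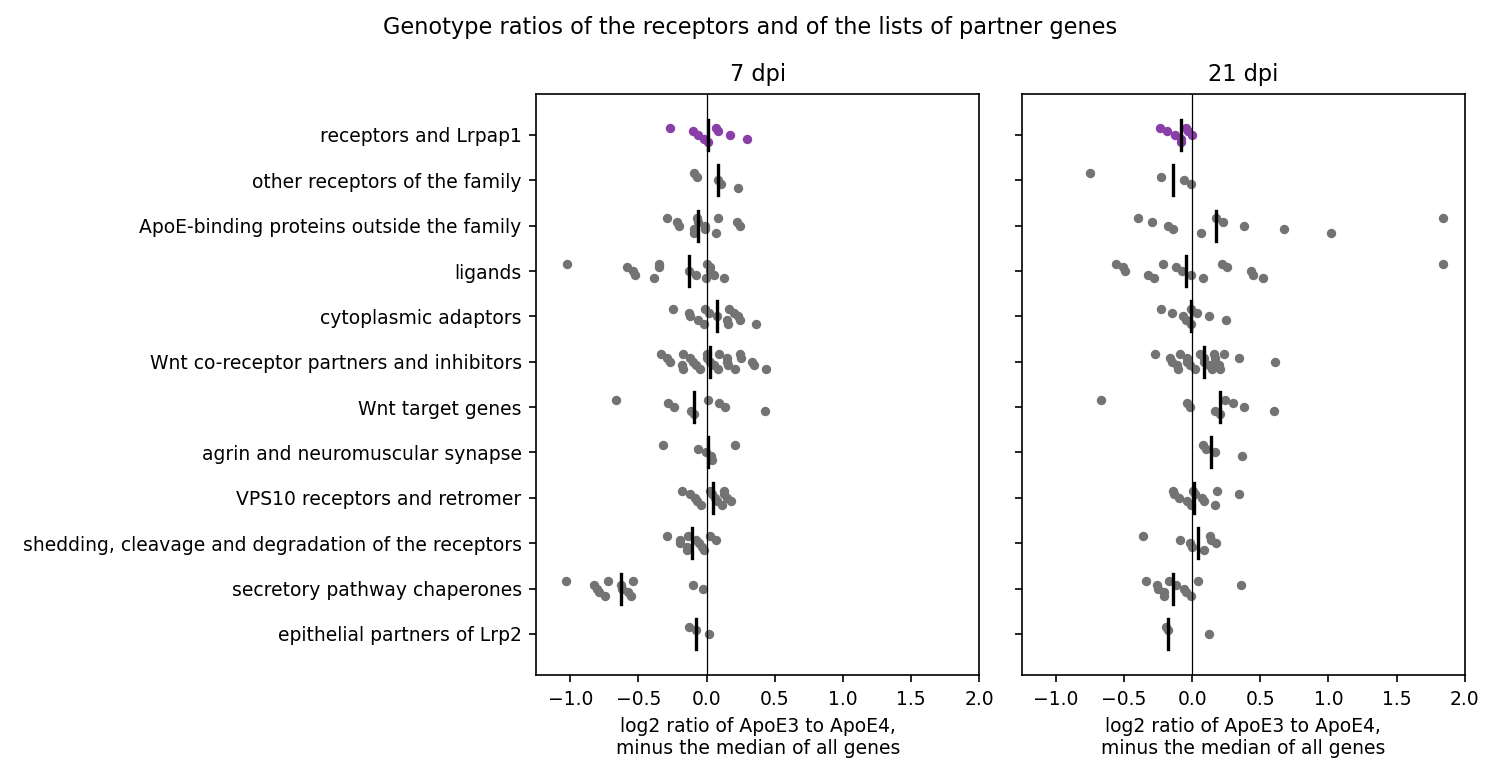
Genotype ratio of each listed gene minus the median of all genes on the log2 scale, for the receptors with Lrpap1 (purple) and each partner list (grey), at 7 dpi and 21 dpi, with a black bar at the list median and 1 value per gene. At 7 dpi the chaperones centre on -0.63 and the receptors on 0.0071, and at 21 dpi the receptors lie between -0.23 and -0.00092, apart from Lrpap1 at 0.0060 with rescaled sums.

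The genes whose pattern over the 4 groups was nearest to that of Sorl1 and Vldlr, the members with the largest ratios at 7 and 21 dpi, were found among 10768 genes by Euclidean distance in log2(FPKM + 1) minus the mean of the gene. For Sorl1 they were Atp1a4 at 0.060, Mfap3l at 0.066 and Aff4 at 0.076, beside a median distance of 0.77. For Vldlr they were Me1 at 0.022, Tcte2 at 0.029 and Cnr1 at 0.030, beside a median of 0.55. With 4 values per gene this is a description of these groups.

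Antisense transcripts limit the reading of a part of Lrp10 and Sorl1. In the mouse GENCODE annotation, exons of Lrp10 share 475 bases with the antisense gene Gm10366, and exons of Sorl1 share 93 bases with the antisense gene Gm16214. Neither antisense gene was listed in the table. The TruSeq kit named in the methods does not mark strand, so reads within the shared bases cannot be told apart.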

How the data were processed

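Per the labels and the study's methods, the authors down-sampled the libraries to the smallest, and the submitters' processing notes name Cuffdiff 1.3.0, SAMtools 0.1.7, Bowtie2 2.1.10 and the aligner STAR in version 2.5.4b. The genome build and annotation of these steps are not given in the sources used here. By the methods, 1 replicate aligned at a lower rate than the others, and the text read here does not name its group. FPKM plus 1 was deposited for each gene, and 1 was taken off before use. The table also holds the authors' fold changes, log2 values, p-values and q-values, and a further deposited table holds their differentially expressed genes. None of these values were used here. Only the sense of the ratio in the authors' gene list was used, in reading the genotype of each column.

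Ratios were computed as log2 of FPKM plus a pseudocount of 1 and called past a fold of 1.3. The median subtracted left out genes whose mean FPKM was under 1. Of the list genes, Ctgf and Mesdc2 were matched through current symbols. No test was run, because groups had 1 value. The 10 members, 11 partner lists and 14 marker lists were chosen with earlier results of these data known. Named genes were the members, up to 4 genes past the fold with the largest ratio per partner list and time point, the most abundant and most different markers, and the 3 nearest genes, and genes outside this rule were named after their values were seen. Single values of a few list genes are not reported here. Alternative settings comprised pseudocounts of 0.1 and 0.01, a minimum mean FPKM of 1, folds of 1.5 and 2, subtraction of the median, and rescaling to equal sums over the genes listed at both time points. Values were computed in pandas 2.3.3 and numpy 2.4.6 under Python 3.11.15, with steps tested on simulated data, and plotted with matplotlib 3.10.9.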

Additional observations from a re-analysis of the deposited data

Results flagged for a closer look

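For 5 genes the genotype ratio as deposited was above 0 at 7 dpi and below 0 at 21 dpi, out of 8 listed at both, where 49% of all 10876 such genes had this sequence of signs. Relative to the median of all genes it was 5 of 8, against 26.1%. The ratio at 7 dpi minus that at 21 dpi was 0.90 for Sorl1, 0.83 for Vldlr, 0.64 for Lrp10, 0.58 for Lrp8 and 0.47 for Lrp6. With 1 value per group, the difference between the time points was not tested. The median of all genes moved from 0.0018 to -0.42 over the same interval. Relative to that median, the ratios of these genes went from 0.29 to -0.18 for Sorl1, from 0.17 to -0.23 for Vldlr, from 0.085 to -0.13 for Lrp10, from 0.071 to -0.079 for Lrp8 and from 0.0071 to -0.033 for Lrp6.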

How the results depend on the processing

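Pseudocounts of 0.1 and 0.01 and a minimum mean FPKM of 1 moved no count of the receptors past the fold beyond 1.5 times and turned none of their directions past it, and the partner and marker lists were not run under these 3 settings. The number of genes past the fold at 21 dpi, 8 as deposited, was 0 minus the median, 0 with rescaled sums, 2 at a fold of 1.5 and 0 at a fold of 2. The median ratio at 21 dpi, -0.50 as deposited, was -0.080 minus the median and -0.072 with rescaled sums. Past the fold between 7 and 21 dpi in ApoE3, 5 as deposited became 2 at a fold of 1.5 and 0 at a fold of 2. In ApoE4, the 2 as deposited were higher at 21 dpi, and 1 passed a fold of 1.5 and 0 a fold of 2. The 5 past the fold minus the median and the 6 with rescaled sums were other genes, all lower at 21 dpi. Values past the fold as deposited that turned were Lrpap1 at 21 dpi, at 0.0060 with rescaled sums, Lrp8 over time in ApoE4, at -0.00087 with rescaled sums, and Vldlr over time in ApoE4, at -0.00069 minus the median and -0.17 with rescaled sums. Among changes within the fold as deposited, those of Sorl1, Lrp4 and Lrpap1 in ApoE4 (0.14, 0.021 and 0.32) turned to -0.38, -0.51 and -0.21 minus the median and -0.55, -0.63 and -0.38 with rescaled sums, and that of Lrp8 in ApoE3 (0.13) to -0.15 with rescaled sums. The subtraction and rescaling remove a shift shared by all genes by construction, and whether that shift is technical was not tested. The alternatives for the changes of single genes over time were chosen after seeing the data. No paired analysis was possible because each group has 1 value per gene and no replicate numbers, and for the same reason no replicate could be left out.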
